A study of Mus musculus with 12 samples.

Results

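The regions described here are the ATAC-seq regions of mouse embryonic stem (ES) cells that are centered at the start of a noncoding gene and not at that of a protein-coding gene. A region was taken when its center lay at most 1 kb from an annotated transcription start site (TSS) and more than 1 kb from every TSS of a protein-coding gene, and it was placed in a class by the gene type of the nearest TSS. On the 19 autosomes, 6207 of 166526 regions met this rule, which is 3.73% (95% Wilson interval 3.64% to 3.82%) of autosomal regions and 21.7% (interval 21.2% to 22.2%) of the 28633 regions within 1 kb of any TSS. The rule reads the center, and 5 of the 6207 regions, all wide, extend over the TSS of a protein-coding gene. The full list holds 170548 regions, of which 4022 on X and Y were left out. ATAC-seq marks accessible chromatin with a transposase that inserts sequencing adapters into open DNA. The 12 libraries came from 2 ES cell lines grown in serum with 2i and LIF. They formed 6 groups with 2 replicates each. In the line ZHBTc4 a Tet-Off promoter drives a Pou5f1 transgene that encodes OCT4, and the groups were OCT4 ON 24 hr (no doxycycline) and OCT4 OFF 24 hr (doxycycline at 1 µg/ml). In 2TS22C cells the same type of promoter drives a Sox2 transgene, and the groups were SOX2 ON and SOX2 OFF at 26 hr and at 40 hr, again without or with doxycycline at 1 µg/ml. The deposited list merges ATAC-seq peaks of both lines into positions alone. Whether the merge also took in peaks of other libraries of these lines, such as ones grown without 2i, is not given in the sources used here. A region was thus accessible in at least 1 pooled sample, nothing shows in which, and cells with and without OCT4 or SOX2 could not be compared.

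Noncoding genes make RNAs that are not translated. Long noncoding RNAs (lncRNAs) are transcribed by RNA polymerase II from promoters of their own, and they include intergenic lincRNAs and antisense transcripts that run against a coding gene. For a microRNA (miRNA) the annotated start is the start of the hairpin, which is cut out of a longer primary transcript, so the promoter of that transcript can lie elsewhere. Processed pseudogenes are copies of messenger RNAs pasted back into the genome, mostly without the promoter of the parent gene. Accessible DNA at an annotated start is therefore not by itself evidence that the gene was transcribed.

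The central 200 bp of 4 regions show how far the sequence varies among these promoters. Each is written 5′ to 3′ on the strand of its gene, from the GRCm38 assembly, and capitals mark CpG dinucleotides. Platr12 and Platr26 are pluripotency-associated transcripts, Snhg5 is a host gene of small nucleolar RNAs, and Terc is the RNA template of telomerase. The Platr12 stretch (chr1:63200212-63200411, plus strand) has 11 CpGs and the TSS at base 102. The Platr26 stretch (chr2:71719308-71719507, plus strand) has 1 CpG and the TSS at base 110. The Snhg5 stretch (chr9:88522923-88523122, minus strand) has 26 CpGs, the TSS at base 194 and a CCAAT box (CCAATCA) from base 154. The Terc stretch (chr3:96414613-96414812, minus strand) has 23 CpGs and lies downstream of the TSS.
Platr12: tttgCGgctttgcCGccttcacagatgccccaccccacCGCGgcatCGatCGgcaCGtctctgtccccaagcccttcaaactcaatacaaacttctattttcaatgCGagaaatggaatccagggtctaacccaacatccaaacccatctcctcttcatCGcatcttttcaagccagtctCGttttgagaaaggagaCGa
Platr26: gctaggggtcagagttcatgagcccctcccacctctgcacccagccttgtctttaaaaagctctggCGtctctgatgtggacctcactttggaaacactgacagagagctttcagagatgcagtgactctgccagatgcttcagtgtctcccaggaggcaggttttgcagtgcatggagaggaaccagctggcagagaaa
Snhg5: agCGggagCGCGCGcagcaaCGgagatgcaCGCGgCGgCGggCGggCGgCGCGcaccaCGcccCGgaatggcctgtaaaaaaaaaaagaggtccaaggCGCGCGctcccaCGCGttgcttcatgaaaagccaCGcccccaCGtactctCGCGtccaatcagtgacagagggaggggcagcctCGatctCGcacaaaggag
Terc: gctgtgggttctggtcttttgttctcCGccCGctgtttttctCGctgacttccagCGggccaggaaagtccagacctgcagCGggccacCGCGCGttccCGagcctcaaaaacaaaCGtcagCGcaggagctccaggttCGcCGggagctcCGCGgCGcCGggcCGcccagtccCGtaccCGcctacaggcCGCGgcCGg

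OCT4 and SOX2 bind next to each other on a composite element made of a SOX part (CATTGT) and an octamer part (ATGCAAAT) with a free base between them. In the central 200 bp, 29 of the 6207 regions held this element on either strand with at most 2 mismatches, 28 of them with 2 mismatches and 1 with a single mismatch. That single best match lay at Gm43941, a processed pseudogene, in a 175 bp region centered 801 bp upstream of its TSS. The next lines give it with matches at the lincRNA gene Gm20465, the antisense gene Gm12147 and the lincRNA gene Gm5427. These were chosen after their values were seen, as lncRNA genes with a region centered close to a TSS. Regions with a match at Ighv1-14, an immunoglobulin V pseudogene, and Gm25232, a small nucleolar RNA gene, were centered nearer. They lay 27 and 54 bp upstream of the TSS and are not shown. Capitals mark the bases that match the element, and small letters within the element are mismatches. The stretches are chr6:100960143-100960197 (plus strand), chr5:33311127-33311181 (minus), chr11:43311168-43311222 (minus) and chr10:98699797-98699851 (plus), each with the element from base 21.
Gm43941: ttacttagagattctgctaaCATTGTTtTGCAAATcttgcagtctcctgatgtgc
Gm20465: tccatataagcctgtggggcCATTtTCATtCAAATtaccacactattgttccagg
Gm12147: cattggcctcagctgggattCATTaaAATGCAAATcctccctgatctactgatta
Gm5427: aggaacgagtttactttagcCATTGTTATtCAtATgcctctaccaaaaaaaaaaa

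Among the 271 miRNA genes with such a region, 145 were matched by position to a RefSeq hairpin (GRCm38.p6), with 236 mature sequences and 223 different seeds. A seed is bases 2 to 8 of the mature RNA, the part that pairs with target mRNAs, and it is in capitals here. Of these seeds, 12 were shared by more than 1 of these genes, and how often seeds are shared over all miRNA genes is not given. The most shared was GUCAGGC, at 3 Mir344 genes out of 7 autosomal RefSeq genes with this seed. The seed AAGUGCU, typical of miRNAs abundant in ES cells, was shared by Mir295 and Mir302b, which lie in 2 different clusters on chromosomes 7 and 3. The seed CUUUGGU was shared by Mir9-1 and Mir9-3, copies of a neural miRNA, and CAGUGCA by Mir148a and Mir148b. These were chosen after their values were seen, as shared seeds of well-known miRNAs.
mmu-miR-295-3p: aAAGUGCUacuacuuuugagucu
mmu-miR-302b-3p: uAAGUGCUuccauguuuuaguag
mmu-miR-9-5p: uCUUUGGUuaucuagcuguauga
mmu-miR-148a-3p: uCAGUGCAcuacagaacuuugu
mmu-miR-148b-3p: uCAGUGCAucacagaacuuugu

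Pseudogenes and lincRNAs made up more than any other class. The nearest TSS belonged to a pseudogene for 1913 regions (30.8%), a lincRNA gene for 1731 (27.9%), an antisense gene for 765 (12.3%), a miRNA gene for 294 (4.74%) and another type for 1504 (24.2%). Most of the pseudogene class, 1488 regions, lay at processed pseudogenes. The class of other types held 522 regions at TEC loci, which are transcribed loci of unsettled type, 300 at processed transcripts, 200 at small nucleolar RNA (snoRNA) genes, 157 at spliceosomal and related snRNA genes and 83 at miscellaneous RNA genes. It also held 124 regions at immunoglobulin and T cell receptor gene segments, which encode protein but carry gene types of their own. With their pseudogenes these segments accounted for 164 regions.

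The 6207 regions belonged to 5417 genes, out of 30422 noncoding genes annotated on the autosomes, or 17.8% (interval 17.4% to 18.2%). This share was 28.2% of lincRNA genes, 22.1% of antisense genes, 15.3% of genes of other types, 14.8% of pseudogenes and 13.2% of miRNA genes. A gene whose only region lay at a coding TSS or nearer to another gene counts here as without one. Counting any region center within 1 kb of the 5′ end, and leaving out genes near a coding TSS, changed the order. The shares were then 29.0% for antisense, 28.6% for lincRNA, 18.5% for miRNA, 17.1% for other types and 15.0% for pseudogenes. A single region was found at 4726 genes, 2 at 609, 3 at 69 and 4 at 11. At the upper end were 1 gene with 5 and 1 with 7 regions.

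Region centers gathered at the 5′ ends of noncoding genes, and did so far more at lncRNAs than at the other classes. Around the 5′ ends of lincRNA genes, there were 358 region centers per kb per 1000 genes in the first 200 bp upstream and 315 in the first 200 bp downstream. Between 2 and 5 kb away the density was 76.7, so that the 400 bp around the 5′ end held 4.39 times the density of the surroundings. Antisense genes had a ratio of 4.01, with 365 centers per kb per 1000 genes just upstream and 341 just downstream. The ratio was 2.22 for pseudogenes, 2.05 for other types and 1.74 for miRNA genes. At pseudogenes and other types the larger of both bins was downstream, with 162 against 125 and 168 against 137. From 400 to 1000 bp away the density had fallen to 1.34 times the surroundings at lincRNA genes and 1.41 times at antisense genes. It was 1.03 to 1.05 times at the 3 other classes. Positions close to a coding TSS were left out of these densities, and no test was made on them.

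**Figure D1:**
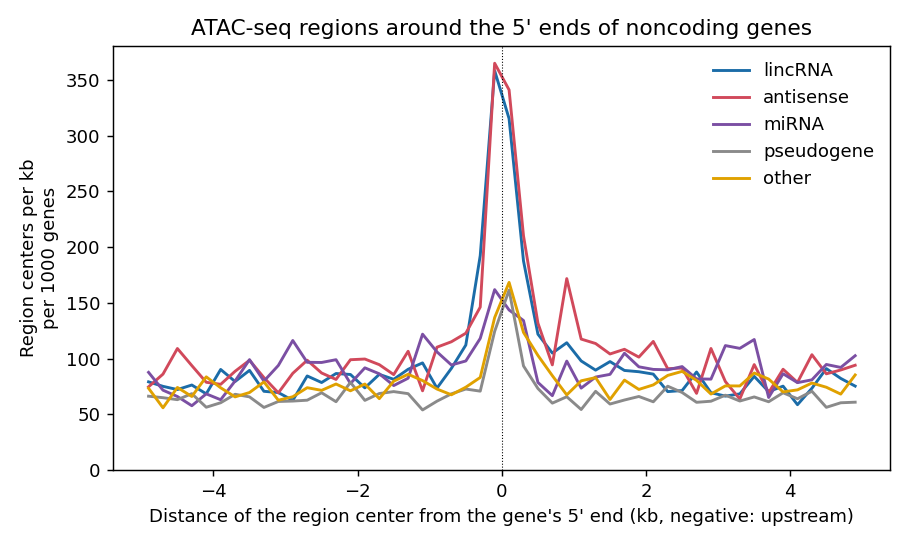
Density of ATAC-seq region centers (per kb and per 1000 genes, 200 bp bins) against the distance from the 5′ end of noncoding genes, in kb, with 1 line per gene class. LincRNA and antisense genes peak at 358 and 365 just upstream of the 5′ end, whereas pseudogenes, miRNA genes and other types peak between 162 and 168.

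Each gene was then compared with its own surroundings, as the share of genes with a region center within 1 kb of the 5′ end against the share at points 10 kb upstream and downstream. Genes with a coding TSS within 2 kb of any of these 3 points were left out, which left 22770 genes. A region was present at the 5′ end of 19.1% of them (interval 18.6% to 19.6%) and at 12.4% and 12.7% of the points upstream and downstream, a ratio of 1.52 (exact McNemar test, two-sided, adjusted p = 4.25e-86). Genes were the units of this test, and they are not replicates of a condition. Processed transcripts, the annotation's type for transcripts without an open reading frame, had a region most often, at 42.2% of 327 genes against 17.4% on average at the points (ratio 2.42, exact McNemar test, adjusted p = 3.51e-12). The share was 28.6% against 13.6% for 4351 lincRNA genes (exact McNemar test, adjusted p = 2.22e-68) and 29.0% against 16.4% for 1258 antisense genes (ratio 1.77, adjusted p = 3.51e-12).

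Pseudogene types were tested one by one and not against each other. Processed pseudogenes, at 15.3% of 7501 genes against 11.7%, exceeded their surroundings by a small margin (ratio 1.31, exact McNemar test, adjusted p = 3.51e-10). Those annotated as transcribed reached 27.0% of 200 genes against 12.3% (ratio 2.20, exact McNemar test, adjusted p = 0.00961). Unprocessed pseudogenes, which arise by duplication of genomic DNA, had a region at 10.3% of 1433 genes against 8.20%, which did not pass the test (adjusted p = 0.249 in the exact McNemar test). Transcribed unprocessed pseudogenes had 20.8% of 173 genes against 11.6% (ratio 1.80) and did not pass either (exact McNemar test, adjusted p = 0.176).

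Among small RNA genes, miRNA and snoRNA genes exceeded their surroundings, and snRNA and ribosomal RNA genes did not pass the test. The share was 18.5% against 13.6% for 1315 miRNA genes (ratio 1.36, exact McNemar test, adjusted p = 0.0139) and 14.6% against 10.2% for 1085 snoRNA genes (ratio 1.43, adjusted p = 0.00961). At 995 snRNA genes it was 11.3% against 12.9%, and at 269 ribosomal RNA genes 8.92% against 12.3%, and neither passed the exact McNemar test (adjusted p = 0.613 and 0.668). Many snRNA and rRNA loci are near-identical copies, among which short reads cannot be assigned with certainty. Whether this bears on their shares was not tested.

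The excess at the 5′ end over the points 10 kb away was set side by side between types on each autosome. It was 15.0 percentage points for lincRNA genes and 3.58 for processed pseudogenes, and it was larger for lincRNA genes on 19 of 19 autosomes (exact sign test, adjusted p = 2.80e-05). For antisense genes it was 12.6 percentage points, larger than for processed pseudogenes on 18 of 19 autosomes (exact sign test, adjusted p = 0.00021). LincRNA exceeded antisense genes on 14 of 19 autosomes, which did not pass the exact sign test (adjusted p = 0.0823). Processed pseudogenes in turn exceeded snRNA genes, whose value was −1.66 percentage points, on 15 of 19 autosomes (exact sign test, adjusted p = 0.0302).

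**Figure D2:**
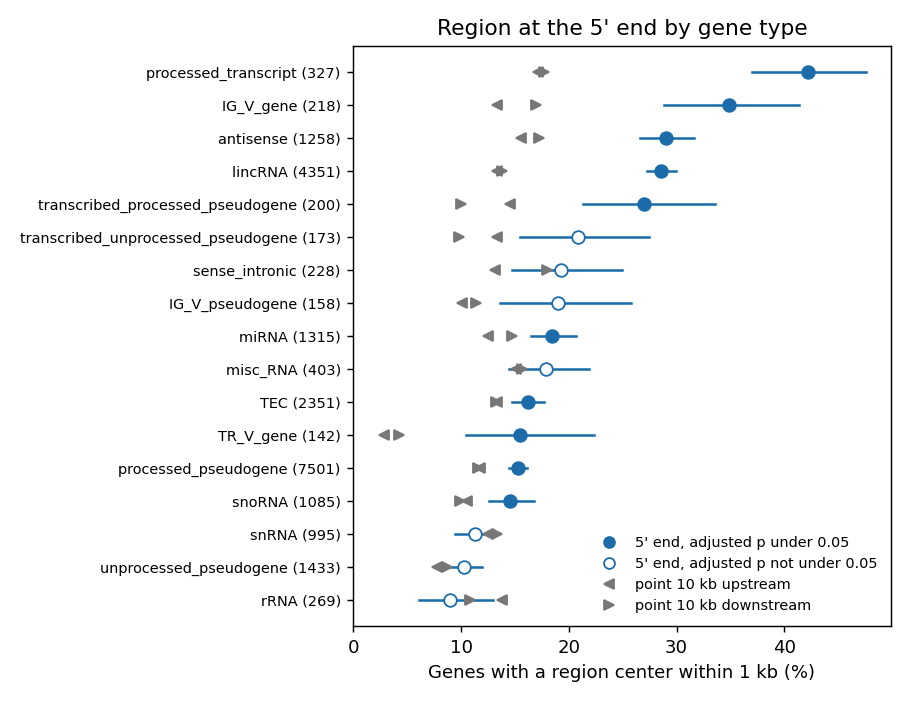
Share of genes (%) with a region center within 1 kb of the 5′ end (circles, with 95% Wilson intervals) and of points 10 kb upstream and downstream (triangles), for the 17 noncoding gene types with at least 100 genes, whose number is in brackets. Processed transcripts lead with 42.2%, and the 7 types with open circles did not pass the exact McNemar test.

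In width and sequence the regions at noncoding promoters lay between regions at coding promoters and distal regions, nearer to the latter. Their median width was 422 bp (quartiles 239.5 and 693 bp), against 879 bp for 22426 regions at coding promoters and 344 bp for 137893 distal regions. The median was below that of coding promoters, and above that of distal regions, on 19 of 19 autosomes (exact two-sided sign tests over autosomes, adjusted p = 4.66e-06 for each). The ratio of observed to expected CpG in the central 200 bp had a median of 0.29 (quartiles 0.15 and 0.51), against 0.64 at coding promoters and 0.21 in distal regions. Median GC content was 51% against 61% and 48.5%. Both orders held on 19 of 19 autosomes with the same adjusted p in the exact sign test.

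CpG-island-like sequence, defined as GC content above 50% and a CpG ratio above 0.6, was found at the center of 901 regions or 14.5% (interval 13.7% to 15.4%). At coding promoters this share was 51.6% and in distal regions 4.58%, and the noncoding promoters lay between them on 19 of 19 autosomes (exact sign tests, adjusted p = 4.66e-06). Repeats masked in the assembly covered a median of 10.5% of the central 200 bp, against 0% at coding promoters and 12% in distal regions. For the latter difference the sign was the same on 18 of the 18 autosomes that differed (exact sign test, adjusted p = 8.39e-06).

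**Figure D3:**
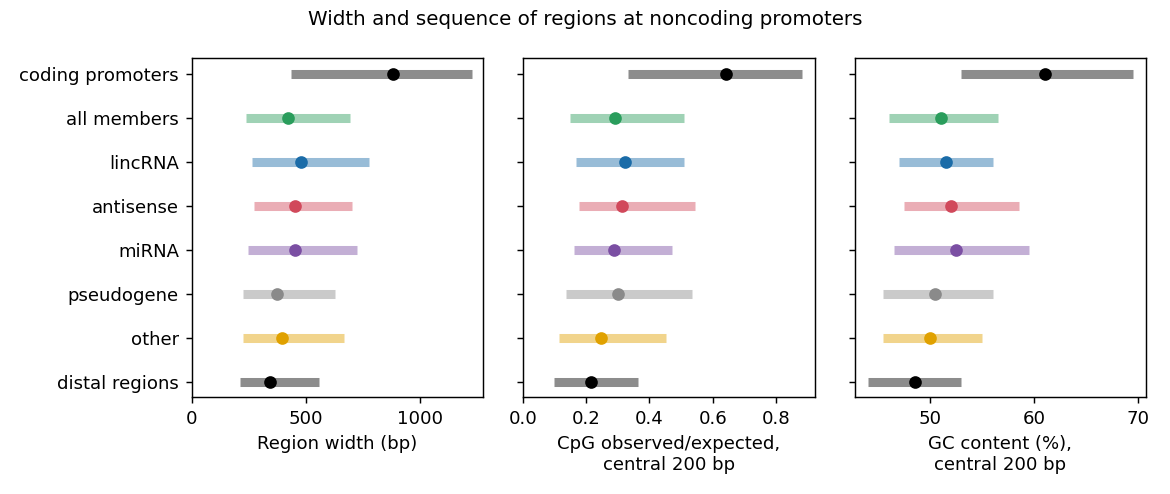
Median (points) and quartiles (bars) of region width in bp, of the ratio of observed to expected CpG and of GC content (%) for coding promoters, all noncoding promoters, their 5 classes and distal regions. All 5 classes have a median width between 344 and 879 bp and a median CpG ratio between 0.21 and 0.64, the values of distal regions and coding promoters.

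Regions that lay on the TSS itself differed in these measures from those beside it. Of the 6207 regions, 2642 (42.6%, interval 41.3% to 43.8%) contained the nearest TSS. This share changed with the limit of the rule, to 63.7% with 500 bp and 26.3% with 2 kb. The 2642 regions had a median width of 637 bp, a median CpG ratio of 0.41 and CpG-island-like sequence in 25.8%. The 3565 that did not contain the TSS had 307 bp, 0.24 and 6.14%, although a wider region is more likely to reach the TSS. With distance, the share of CpG-island-like sequence went from 21.7% within 250 bp, through 11.6% at 251 to 500 bp and 6.65% at 501 to 750 bp, to 8.10% at 751 to 1000 bp. The intervals of the last 2 bins overlap. At the limit of the rule, 423 regions between 900 and 1000 bp from the TSS had a median width of 339 bp and a median CpG ratio of 0.23, and 390 regions between 1001 and 1100 bp had 338 bp and 0.22.

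The classes differed in where they sat relative to genes. LincRNA regions contained the TSS in 52.2% of cases (interval 49.8% to 54.5%), antisense regions in 45.5%, other types in 38.2%, miRNA regions in 37.8% and pseudogene regions in 36.9%. Among gene types of at least 50 regions the highest shares were 69.0% at transcribed unprocessed pseudogenes (interval 56.2% to 79.4%) and 62.7% at processed transcripts (interval 57.1% to 67.9%), whose intervals overlap. The center lay inside a protein-coding gene for 28.8% of all regions, for 5.31% at lincRNA genes, 21.2% at pseudogenes, 56.8% at miRNA genes and 70.2% at antisense genes. At antisense genes, 68.6% lay within a coding gene of the opposite strand, as the definition of the type implies. The median distance to the nearest coding TSS was 44.8 kb at lincRNA genes, 24.9 kb at pseudogenes, 12.9 kb at miRNA genes and 8.75 kb at antisense genes. The median CpG ratios of lincRNA and pseudogene regions were 0.32 and 0.30 and differed in either direction, with lincRNA higher on 10 of 19 autosomes (exact sign test, adjusted p = 1). With a limit of 2 kb in place of 1 kb, the difference grew to 0.04 and passed the test (exact sign test, adjusted p = 8.39e-05), and with a limit of 500 bp it was −0.06, in the opposite direction (exact sign test, adjusted p = 0.0636).

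Of 31 lncRNA genes known from ES cells, 19 had a region counted here, 2 had only a region that also lay at a coding TSS (Platr20 and Platr23), and 10 had none at any of their TSSs. Tunar and Oip5os1, also on the list, were not among the 31. Over all noncoding genes 17.8% had a region counted here, and over lincRNA genes 28.2%. These shares are the background for the lists below as well, and no list was tested against them. The 27 regions of the 19 genes had a median width of 698 bp, against 422 bp over all 6207. The TSS was contained in 20 of the 27 (74.1%), against 42.6% of all regions. The widest was at Platr22, a 1738 bp region (chr1:136694957-136696694) centered 386 bp upstream of the TSS, and it had a low CpG ratio of 0.17. Platr9 had 1510 bp, centered 73 bp downstream of the TSS, and a CpG ratio of 0.44. Platr19, 152 kb from the nearest coding TSS (Mycn, which encodes a growth-promoting transcription factor), had 1356 bp and a CpG ratio of 0.07. Dancr, named for antagonizing differentiation, had a 994 bp region centered 2 bp upstream of its TSS, with a CpG ratio of 0.69. Platr12 had 977 bp and the highest CpG ratio of the widest 6, 0.97, and Platr27 had 909 bp and 0.31. The ES cell lncRNA promoters included both CpG-rich and CpG-poor sequence, as the Platr12 and Platr26 stretches above show. Lncenc1, a lncRNA of naive ES cells, had a 686 bp region that contained its TSS, and Trp53cor1 (lincRNA-p21), a p53 target, had 3 regions. Platr13, Platr15, Platr28 to Platr31, Platr3 and Platr5 to Platr7 were the genes without a region.

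Of 21 lncRNA genes on a list named housekeeping, which also holds Pvt1 and Miat, 12 had a region counted here. Another 7, among them Gas5, Snhg1 and Tug1, shared a region with a coding TSS. The 22 regions of the list, 7 of them at Pvt1, had a median CpG ratio of 0.66, against 0.29 over all 6207. They included CpG-poor ones. Snhg15 had a CpG ratio of 0.31, and the 7 regions of Pvt1 ran from 0.22 to 0.94. Malat1, an abundant nuclear RNA found at splicing speckles, had the widest at 1718 bp (chr19:5802402-5804119), with 62.5% GC and a CpG ratio of 0.72. The snoRNA host genes Snhg17, Snhg8 and Snhg5 had regions of 1394, 1306 and 1007 bp, all over the TSS, with CpG ratios of 0.98, 0.82 and 1.21. Epb41l4aos had 1296 bp and a CpG ratio of 0.82. Neat1, the scaffold RNA of paraspeckles, had no region of its own, since the only region within 1 kb of one of its TSSs lay nearer to the TSS of Frmd8os. Snhg14 had none.

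Pvt1, a lncRNA gene next to the Myc oncogene, had 7 regions, more than any other noncoding gene. They lay 49.8 to 236 kb from the Myc TSS. The widest were at the first TSS (1176 bp, chr15:62037672-62038847) and at a TSS further downstream (801 bp, chr15:62098614-62099414). The other 5 had 153 to 316 bp. The next genes by number of regions were 3110039I08Rik on chromosome 9 with 5, and 11 genes with 4 each. Of these 11, the largest summed widths were at 4930448E22Rik, AC163629.2 and Gm13147. A gene with more annotated TSSs can collect more regions, and the number of TSSs was not taken into account. Regions of 1 gene share its neighborhood and are not independent.

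Imprinted noncoding genes, which are transcribed from 1 parental allele, had a region at 4 of 9. Peg13 (1659 bp, CpG ratio 0.85) and Kcnq1ot1 (1423 bp, CpG ratio 0.83) had wide and CpG-rich regions that contained the TSS. Both lie within an intron of a coding gene. Airn, the antisense RNA that silences Igf2r, had a 938 bp region centered 8 bp downstream of its TSS within Igf2r. The CpG ratio of this region was 0.33. Meg3 had a 959 bp region centered 993 bp downstream, just inside the limit, with a CpG ratio of 0. Over the 6 regions of these 4 genes the median CpG ratio was 0.27, against 0.29 over all 6207. H19, Rian, Mirg and Snhg14 had none, and of the 2 regions at Nespas 1 lay at a coding TSS and 1 nearer to Gm27849, a gene of miscellaneous RNA type. The list does not tell alleles apart.

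Developmental lncRNAs, most of which neighbor a transcription factor gene of the embryo, had a region at 14 of 26 genes. Another 10 shared their region with a coding TSS, and Hottip and Hoxb5os had none. The widest were at Pantr2 (1284 bp, 18.1 kb from Pou3f3), Rmst (1166 bp) and Sox1ot (1063 bp, 9.66 kb from Sox1). Hand2os1 had 4 regions, the widest of 1026 bp, and Six3os1 had 735 bp over its TSS, 2.70 kb from that of Six3. Tbx3os1 had 649 bp. Sox2ot, within which the Sox2 gene lies, had 4 regions of 261 to 444 bp at 4 of its TSSs, and the widest lay 89.8 kb from the Sox2 TSS. Hotair, a lncRNA of the Hoxc cluster, had a 274 bp region over its TSS with a CpG ratio of 0.18. Over the 22 regions of this list the median width was 390 bp, below the 422 bp of all regions, and the median CpG ratio was 0.56, above 0.29.

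Structured RNAs with constitutive functions had a region at 8 of 14 genes, and 4 more shared one with a coding TSS. Rnu11, an RNA of the minor spliceosome, had 1100 bp and a CpG ratio of 1.20. Rn7s2, an RNA of the signal recognition particle, had 774 bp, the Y RNA gene Rny1 had 724 bp, Terc had 684 bp, the vault RNA gene Vaultrc5 had 681 bp and Rny3 had 593 bp. All of these but that of Rny3 contained the TSS, and the regions at Rprl3 (355 bp) and Rprl2 (266 bp) did not. The region within 1 kb of Rn7sk, an RNA that holds back transcription elongation, was nearer to the TSS of C920006O11Rik. For 10 genes that host miRNAs, 6 had a region and 3 had none, including Mir17hg. Mir124-2hg (1649 bp), Mir9-3hg (1580 bp) and Mir155hg (1181 bp) had the widest, although miR-124 and miR-9 are best known from neurons and miR-155 from immune cells. Mir670hg followed with 938 bp, Mir124a-1hg with 692 bp and Mir99ahg with 477 bp.

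**Figure D4:**
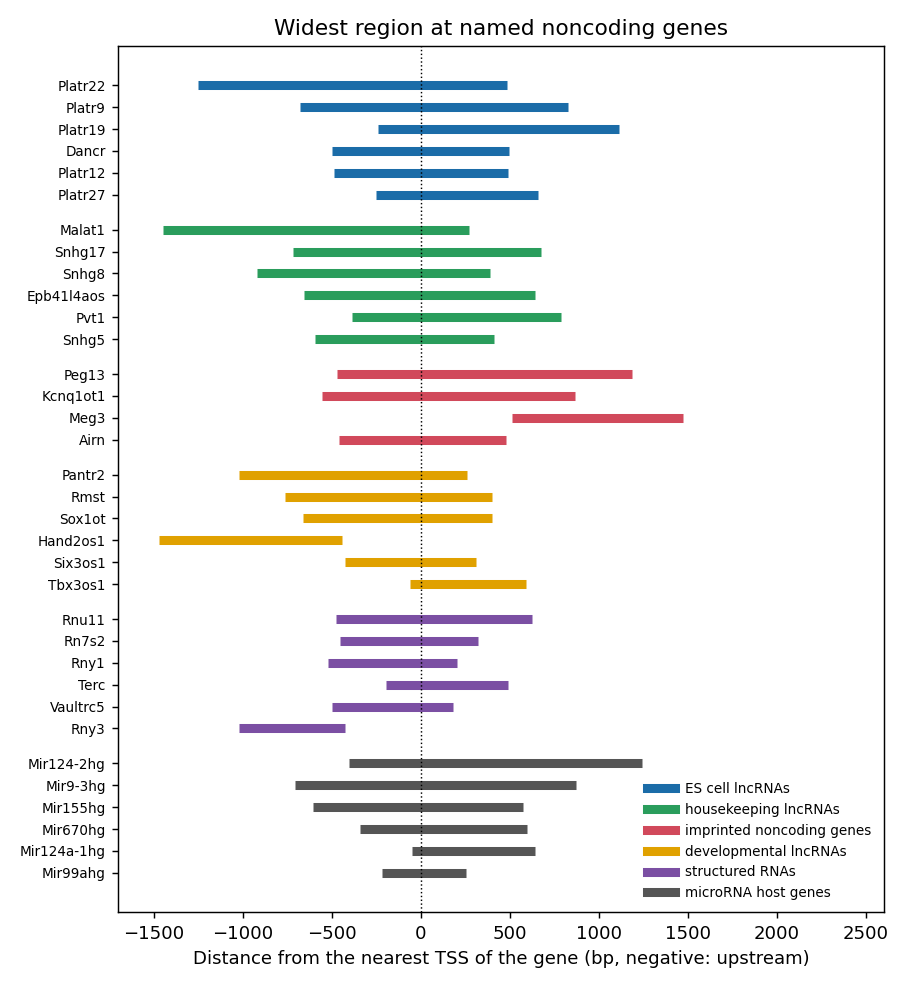
Position of the widest region at 34 named noncoding genes (bars), in bp from the nearest TSS of the gene and oriented by its strand, at most 6 genes for each of 6 lists shown by color. Most bars cross the TSS at 0, whereas those of Meg3, Hand2os1 and Rny3 lie beside it. The genes are those with the widest regions of each list, and a wider region is more likely to reach the TSS. Of all 6207 regions, 42.6% contained the TSS.

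At miRNA hairpins, the widest region was 4531 bp at Gm27878 (chr4:3050219-3054749), with a CpG ratio of 0 and 68% masked repeats, near the start of the assembled chromosome. Mir124a-3, a neural miRNA gene, had a 2244 bp region centered 45 bp upstream of the hairpin with a CpG ratio of 1.03. Mir615, in an intron of Hoxc5, had 1752 bp and 0.71. Mir290a opens the cluster of miRNAs most abundant in mouse ES cells, and a 1666 bp region was centered 251 bp upstream of its hairpin start and covered it. Regions of 506 bp and 119 bp were found at Mir291b and Mir295 of the same cluster. Mir302b of the other ES cell cluster had 867 bp, centered 221 bp upstream. Mir9-1 and Mir9-3, with the same mature sequence, had 1271 and 977 bp and CpG ratios of 0.91 and 0.99.

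Among the other classes, the widest region of all was 5702 bp at the lincRNA gene Gm26917 (chr17:39843056-39848757). It is the only one over 5 kb, a size above which the study's methods drop peaks, so the deposited list still holds regions of that size. It also overlaps the gene CT010467.1, annotated as ribosomal RNA, and reads shared among ribosomal RNA copies were not tested as its source. Gm16499 (3229 bp) lies over an exon of Tril and Gm4675 (2951 bp) over an exon of Sox21, on the opposite strand. The widest antisense region, 2829 bp at Gm2164, lay over an exon of Pou3f1, 1.28 kb from its TSS. The centers at Gm4675 and Gm16499 lay 1.01 kb from the Sox21 TSS and 1.36 kb from that of Tril. All 3 regions extend over the coding TSS itself, as do those of 4933412E12Rik (over the TSS of Rab3ip) and Gm37811 (over that of C1ql3). Gm37634 (2089 bp, CpG ratio 0) and Gm36816 (2000 bp) followed among antisense genes. Pisd-ps2 (2113 bp), Nlrp5-ps (1796 bp) and Pced1c-ps (1794 bp) were widest among pseudogenes, and all 3 contained the TSS. In the class of other types these were Gm45872 (3571 bp), Zswim6 (3211 bp) and 4933412E12Rik (2884 bp). Zswim6 (ENSMUSG00000032846.10) carries the symbol of a coding gene but the type of a processed transcript in the annotation used.

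Pseudogenes of ribosomal protein genes, recognized by symbol, had a region at 50 of 250 genes. For all symbols ending in -ps this was 177 of 1372, and for all pseudogenes it was 1712 of 11594 (14.8%). These shares were not tested against each other.

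Segments of immunoglobulin and T cell receptor genes were counted among other types and their pseudogenes among pseudogenes, and the counts by locus hold both. At the Igh locus on chromosome 12, 94 of 217 segments (43.3%) had a region, whereas the kappa locus on chromosome 6 had 10 of 166 (6.02%). For 218 V segments of immunoglobulin genes of the types tested, the 5′ end had a region at 34.9% against 15.1% at the points 10 kb away (ratio 2.30, exact McNemar test, adjusted p = 2.42e-05). T cell receptor V segments had 15.5% against 3.52% (ratio 4.4, exact McNemar test, adjusted p = 0.00592). Neighboring points in these dense loci can lie at other segments. The regions at immunoglobulin V genes were centered downstream of the start of the segment, by a median of 325 bp, and 16 of the 89 lay upstream (interval 11.4% to 27.2%), compared with 47.8% of all regions. Their median CpG ratio was 0.09 and 0 of 89 had CpG-island-like sequence, which allows a share of up to 4.14% by the Wilson interval. The Igh locus had 117 regions for its 217 annotated segments. Within it, the family Ighv1 had 56 regions for 93 annotated segments and the family Ighv8 had 14 for 16. These segments are copies of each other, and reads shared among copies were not tested as a source of the regions.

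Sequence motifs were searched in the central 200 bp on both strands and set against equally wide flanks centered 1 kb away on both sides. The CTCF element, bound by the insulator protein CTCF, was found with at most 1 mismatch in 9.02% of regions (interval 8.33% to 9.76%), 4.21 times the mean of the flanks (exact McNemar test, adjusted p = 3.68e-61). Elements known from coding promoters were also more frequent at the center than in the flanks. The ETS element (CCGGAAGT) was in 0.934% of regions (ratio 3.52, exact McNemar test, adjusted p = 4.91e-06), the GC box (GGGGCGGGG) in 2.11% (ratio 3.28, adjusted p = 1.05e-10) and the CCAAT box (CCAATCA) in 3.54% (ratio 1.68, adjusted p = 4.91e-06). The NRF1 element (GCGCATGCG) was in 15 regions, or 0.242% (ratio 3.75), which missed the threshold of the exact McNemar test (adjusted p = 0.0881). The YY1 element (AAGATGGC) was in 1.58%, against 1.81% in the flanks (adjusted p = 0.622, exact McNemar test).

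The OCT4::SOX2 element was in 0.467% of regions (interval 0.326% to 0.67%) and 0.161% of flanks, a ratio of 2.90 (exact McNemar test, adjusted p = 0.00608). It did not pass with a central window of 400 bp (ratio 1.47) or with flanks 2 kb away (ratio 2.15), and with at most 3 mismatches the ratio was 0.991. The SOX element (CCATTGT) was in 3.74% (ratio 1.39, exact McNemar test, adjusted p = 0.00977). The octamer (ATGCAAAT), which is the octamer part of the composite element and overlaps it, was in 1.61% (ratio 1.37) and did not pass (exact McNemar test, adjusted p = 0.0614). LincRNA regions held 11 of the 29 OCT4::SOX2 matches, pseudogene regions 9, other types 6, antisense regions 3 and miRNA regions 0. As shares of each class these were 0.635% (interval 0.355% to 1.13%), 0.470%, 0.399%, 0.392% and 0% (interval up to 1.29%). The intervals of all classes overlap. A match is a stretch of letters and not a bound site. Among coding promoters and distal regions, the CCAAT box was in 3.71% and 3.69%, the octamer in 0.758% and 2.22% and the YY1 element in 2.11% and 2.65%.

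In the share of regions with each motif, noncoding promoters differed from coding promoters and from distal regions in part. The GC box was in 7.85% of coding promoters and 0.978% of distal regions. Noncoding promoters were below the former on 19 of 19 autosomes (exact sign test, adjusted p = 2.80e-05) and above the latter on 17 of 19 (adjusted p = 0.00146). For the ETS element the shares were 2.36% and 0.374%, below coding promoters on 19 of 19 autosomes (exact sign test, adjusted p = 2.80e-05) and above distal regions on 18 of 19 (adjusted p = 0.00021). The NRF1 element, in 0.861% of coding promoters, was rarer at noncoding ones on 17 of 19 autosomes (exact sign test, adjusted p = 0.00146), and the difference from distal regions did not pass (adjusted p = 1). The YY1 element was rarer at noncoding than at coding promoters on 16 of 19 autosomes (exact sign test, adjusted p = 0.00749) and rarer than in distal regions on 17 of 19 (adjusted p = 0.00146). By contrast, the CTCF element was more frequent than the 6.19% of coding promoters on 18 of 19 autosomes (exact sign test, adjusted p = 0.00021), and the difference from the 10.0% of distal regions did not pass (adjusted p = 0.0823). The SOX element was more frequent than at coding promoters (1.95%) and less frequent than in distal regions (4.85%), each on 18 of 19 autosomes (exact sign test, adjusted p = 0.00021). The octamer was more frequent than at coding promoters on 16 of 19 autosomes (exact sign test, adjusted p = 0.00749), and its difference from distal regions did not pass (adjusted p = 0.0823). For the CCAAT box neither difference passed the exact sign test (adjusted p = 1 and 0.712). For the OCT4::SOX2 element neither difference passed the exact sign test (0.165% of coding promoters, 0.632% of distal regions, adjusted p = 0.416 for both).

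**Figure D5:**
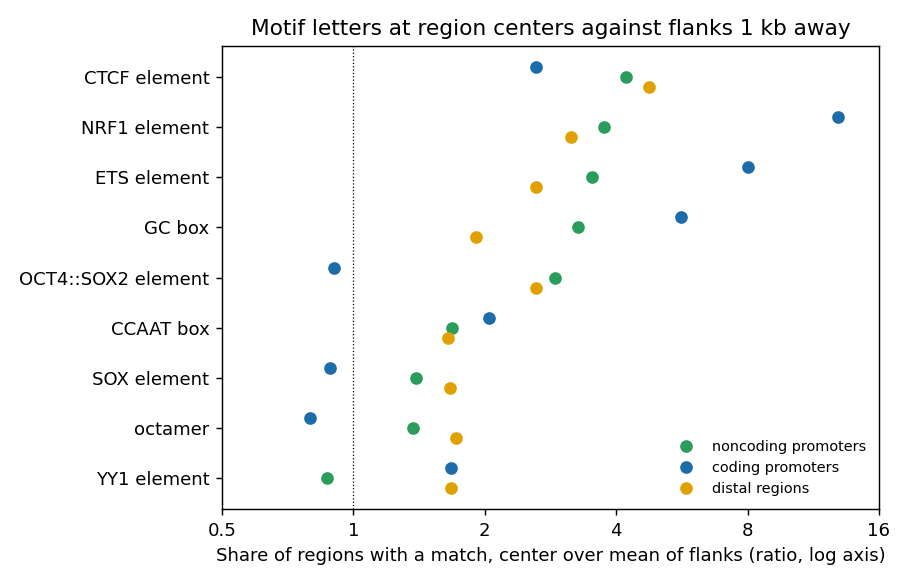
Ratio of the share of regions with a motif in the central 200 bp to the mean share in flanks 1 kb away (log axis), for noncoding promoters, coding promoters and distal regions. NRF1, ETS and GC box ratios are highest at coding promoters (12.9, 8.02 and 5.64), whereas the OCT4::SOX2 ratio is 2.90 at noncoding promoters, 2.62 in distal regions and 0.902 at coding promoters.

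Across autosomes, regions at noncoding promoters numbered 1.89 per Mb on chromosome 16 to 3.74 per Mb on chromosome 12. They made up 6.23% of the regions of chromosome 12 and 5.02% of those of chromosome 17, against 2.96% on chromosome 16. The 332 regions left on chromosome 12 without the 117 at immunoglobulin segments were 4.60% of all its regions, those 117 still counted in the total.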

How the data were processed

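ATAC-seq was done in 12 libraries of 2 ES cell lines, in 6 groups of 2 replicates. Reads were mapped by the authors to GRCm38 (mm10) with STAR 2.6.1c, duplicates were removed with Picard, and the authors called peaks with MACS2 2.1.1.20160309 and merged the peaks of both lines with BEDTools. Their methods also remove peaks over 5 kb, in Input samples or on a blacklist, and the deposited list still holds regions over 5 kb. The deposited values are the positions of the merged regions in bp, with no score, count or value per sample (0 columns belong to a single sample), so the depth of each library is unknown, and intervals cover only the number of regions or genes. Whether peaks were called per replicate is not given in the sources used here.

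TSSs of all transcripts came from GENCODE release M21 and sequence from GRCm38. Autosomes were the units of exact two-sided sign tests, and genes or regions those of exact McNemar tests against points 10 kb away or flanks 1 kb away, of which the larger p is given. P-values were adjusted by Benjamini-Hochberg within each family at a threshold of 0.05, and at least 20 genes of a type were required. Sign tests between gene types and of motif shares were added after seeing the data. Motifs were matched by letters on both strands, with at most 2 mismatches for OCT4::SOX2, 1 for CTCF and 0 for the others. Members and lists were chosen with earlier results of these data known. Named genes are those of 6 lists with a region, at most 6 a list with the widest first, the 3 widest of each class, the 5 genes with the most regions and the OCT4::SOX2 match with at most 1 mismatch, and others are named as chosen after their values were seen, or to account for a list. The functions were tested on simulated data. Python 3.11.15, NumPy 2.4.6, SciPy 1.17.1 and matplotlib 3.10.9 were used. The alternatives changed the TSS limit and set, the distance measure, the width filter, the windows and flanks and the number of mismatches, and, chosen after seeing the data, the gene types and whether a region extends over a coding TSS.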

Additional observations from a re-analysis of the deposited data

How the results depend on the processing

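The list pools all conditions, so no library could be left out, and no condition or depth could be compared. No paired analysis was possible because the file carries positions alone, without a column for any replicate. Of 180 values under alternatives set with earlier results known, 144 kept their direction and side of the threshold, stayed within 1.5 times for a count, or moved by less than their error. The number of regions was 4206 with a limit of 500 bp, 9603 with 2 kb, and, chosen after seeing the data, 2872 for lncRNA genes alone. Their share of autosomal regions was 2.53% with a limit of 500 bp, 5.77% with 2 kb, 3.23% without automatic annotation (level 3), 4.17% from the region edge and 3.85% for regions of at least 200 bp. It was 3.63% without immunoglobulin and T cell receptor segments and 1.76% for lncRNA genes alone. In both of these, the regions left out were also taken out of the total. The share of regions centered inside a protein-coding gene was 35.4% with 1 TSS per gene and 26.2% without level 3. The share of noncoding genes with a region was 13.4% within 500 bp and 9.02% with the TSS inside the region, which these narrower limits lower by construction, and 19.9% without level 3. The difference in CpG ratio between lincRNA and pseudogene regions passed the test with a limit of 2 kb (0.0441) and turned to −0.0563 with 500 bp (adjusted p = 0.0636, exact sign test). The OCT4::SOX2 ratio was 1.47 with a central 400 bp and 2.15 with flanks 2 kb away, no longer past the threshold, and turned to 0.991 with at most 3 mismatches. With at most 1 mismatch it had no value, as no flank had a match. The YY1 ratio, below 1 with the windows used, was 1.04 with a central 400 bp, not past the threshold in either. The NRF1 ratio passed the threshold with a central 400 bp (3.18) and with flanks 2 kb away (4.29). The cause of the level 3, OCT4::SOX2, YY1, NRF1 and CpG changes was not tested.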
